A study of Mus musculus with 11 samples.

Results

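S100a6 and 7 related genes were followed across mouse B cell lymphomas: S100a1, S100a4, S100a10, S100a11, S100a13, Anxa1 and Anxa2. They make up 8 of the 20181 genes tested and are read by 11 of the 39429 probes of the array, and all 8 had a probe well above background on all 11 arrays. These genes were picked from measured values, because the levels of S100a6 across the lymphoma types were known beforehand. Their levels and differences are therefore given as a description. Counts of the 8 past a threshold stand only beside the share of all genes past it, and a test is read for genes outside the 8 alone.

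RNA was measured in 11 lymph node tumours, each on its own one-colour array. Of these 4 were labelled plasma cell lymphoma (PCL), 3 mantle cell lymphoma (MCL) and 4 Burkitt lymphoma (BL). All mice were of the Black 6 strain, had 1 functional p53 allele (p53+/-) and bore the transgene c-myc-3'RR, in which regulatory sequence from the 3' end of the heavy chain gene locus of immunoglobulins drives c-myc in the B lineage. The labels put every tumour at the mature B cell stage, the 3 types differ only in the tumour origin given, and no non-tumour or non-transgenic group was among them. Tumours are named by type and number, such as PCL1, and whether each of them was taken from a mouse of its own is not in the labels, so errors and p-values reflect the spread among these samples alone, which may be technical. Ages of the mice are not given in the sources used here.

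S100 proteins are small calcium-binding proteins with EF-hand motifs that mostly act as dimers, and annexins bind acidic phospholipids of membranes when calcium is present. The 2 families meet in defined complexes: S100A10 joins annexin A2 in a heterotetramer at the plasma membrane, and S100A11 binds annexin A1. Most S100 genes lie in one cluster, the epidermal differentiation region of mouse chromosome 3, and several of them, S100a4 and S100a6 among them, are known as markers of memory and activated lymphocytes and of myeloid cells.

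The probes are 60-base DNA strands, and related genes could share signal where their probes are alike, so the most similar ones are shown. Capitals mark a run of 7 bases that the 3 probes have in common, and each is written 5′ to 3′.

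S100a6, chr3:90418160-90418219 (mm9, plus strand): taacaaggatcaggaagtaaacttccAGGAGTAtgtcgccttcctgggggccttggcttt

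S100a4, second probe, chr3:90409734-90409793 (mm9, plus strand): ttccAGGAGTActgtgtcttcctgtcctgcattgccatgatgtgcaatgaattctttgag

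S100a1, chr3:90315191-90315250 (mm9, minus strand): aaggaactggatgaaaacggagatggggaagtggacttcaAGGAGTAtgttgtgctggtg

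Among 52 pairs of probes for different genes of the 8, the longest stretch in common was 11 of 60 bases, between S100a6 and the second probe of S100a4. S100a6 and S100a1 shared 10 bases in a row.

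The array signals held 0 saturated spots, and the share of non-control spots well above background ran from 55.5% to 62.8% per array. Signals are given as log2 of the processed intensity minus the array's 75th percentile, so 0 is the 75th percentile and a step of 1 is a doubling. The number of arrays limits the precision. Every lymphoma type had a separate slide, so type and slide cannot be told apart. The 8 B cell markers fixed for the check, among them Cd79a and Pax5, were well above background in all 11 tumours. In these bulk samples fewer cells of a type and less RNA per cell cannot be told apart. PCL1 stood apart from the other PCL tumours in the macrophage and monocyte markers, whose mean log2 signal, after the average over all tumours was taken from each gene, was -0.83 in PCL1 against 2.56, 1.36 and 1.81 in the other PCL tumours.

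S100a6 encodes calcyclin, which binds the calcyclin-binding protein encoded by Cacybp. Its signal was 3.42, 3.30, 3.26 and 3.03 in PCL1 to PCL4, 1.21, -1.55 and -0.38 in MCL1 to MCL3, and 3.00, 4.22, 3.36 and 3.56 in BL1 to BL4. Every MCL tumour lay below every PCL and BL tumour, with a gap between MCL1 and the next tumour, BL1, while PCL and BL overlapped. The means were 3.25 ± 0.16 (SD, n = 4) in PCL, -0.24 ± 1.39 (SD, n = 3) for MCL and 3.54 ± 0.51 (SD, n = 4) in BL. S100a6 was thus 13.7-fold lower in MCL than in BL (log2 difference -3.78 ± 0.54, SE of the fit) and 11.3-fold higher in PCL than in MCL (3.49 ± 0.54). PCL and BL, neighbours in the order of levels, differed by -0.28 ± 0.50, less than the spread of the BL tumours. The MCL tumours varied most among themselves: without MCL1 the difference from BL was -4.50, and without MCL2 it was -3.12. MCL2 was lowest in S100a6 and also in S100a1, S100a11, S100a13 and Anxa2. It had the lowest RNA integrity number, 8, where all other tumours had 9 or 10. With this number as a covariate S100a6 differed by -3.71 between MCL and BL and by 3.43 between PCL and MCL.

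**Figure D1:**
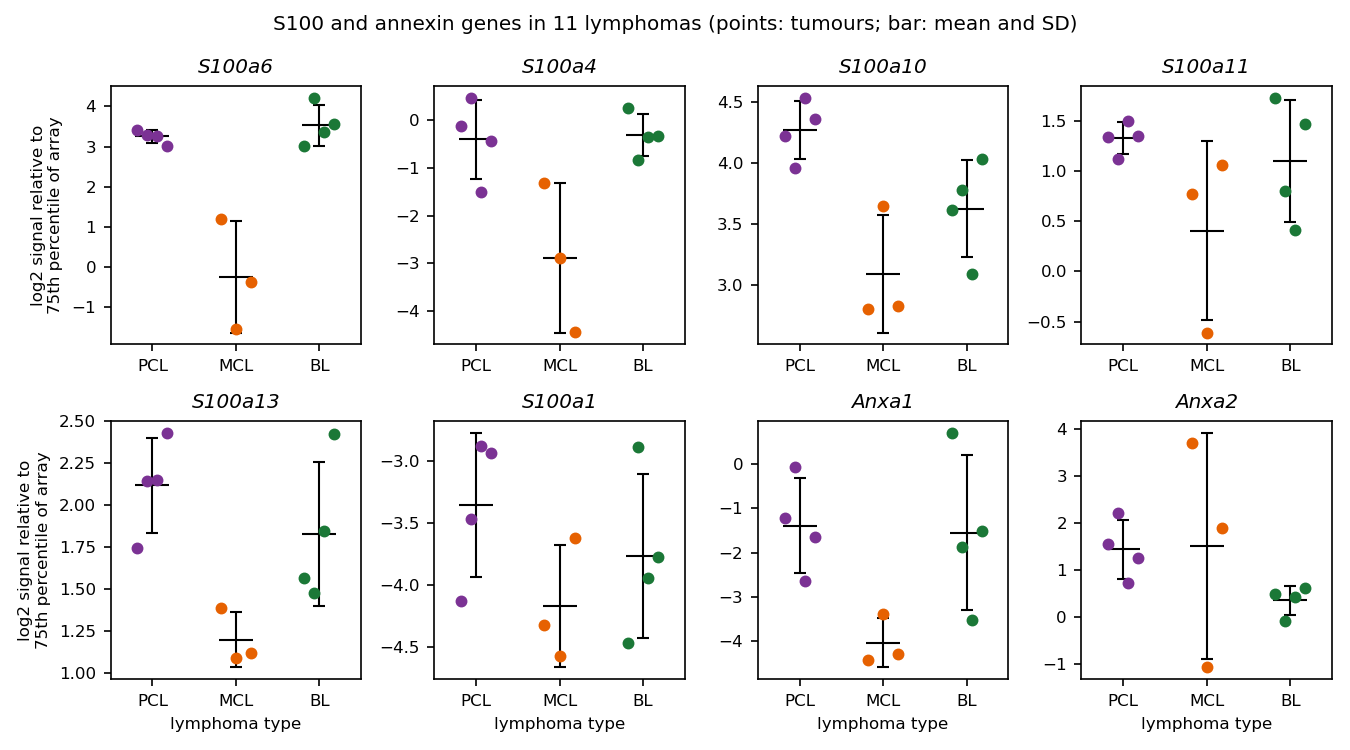
Log2 signal of the 8 genes (vertical axes, relative to the array's 75th percentile, with a scale of its own per panel) in PCL, MCL and BL tumours. Points are tumours, and the bars give the mean and SD of a type; the MCL points of S100a6 reach 1.21 at most, while all PCL and BL points lie at 3.00 or above.

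S100a4, or metastasin, encodes a protein that binds the heavy chain of non-muscle myosin IIA, the product of Myh9. Its brighter probe read -0.13, 0.46, -1.50 and -0.44 in PCL1 to PCL4, -1.33, -2.89 and -4.45 in MCL1 to MCL3, and 0.24, -0.83, -0.35 and -0.34 in BL1 to BL4. All MCL tumours were below all BL tumours, but PCL3 was slightly below MCL1. The means were -0.40 ± 0.82 (SD, n = 4), -2.89 ± 1.56 (SD, n = 3) and -0.32 ± 0.44 (SD, n = 4), a difference of -2.57 ± 0.67 (SE) between MCL and BL and of 2.49 ± 0.67 between PCL and MCL. PCL and BL differed by -0.08 ± 0.62. The second S100a4 probe, the one printed above, followed the first across the tumours (r = 0.98 over 11 tumours). By this probe the lowest PCL tumour, PCL3 at -1.66, was just above the highest MCL tumour, MCL1 at -1.68, and the other MCL tumours were at -2.82 and -3.39. The order of the MCL tumours was not that of S100a6, for which MCL2 was the lowest and not MCL3.

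S100a10 encodes p11, the subunit that holds annexin A2 at the plasma membrane and presents plasminogen to its activator there. It measured 4.23, 3.96, 4.54 and 4.36 in PCL1 to PCL4, 2.80, 3.65 and 2.83 in MCL1 to MCL3, and 3.62, 3.78, 3.09 and 4.03 in BL1 to BL4. PCL tumours were above all MCL tumours and overlapped with BL only through BL4. The means were 4.27 ± 0.24 (SD, n = 4), 3.09 ± 0.48 (SD, n = 3) and 3.63 ± 0.40 (SD, n = 4), so that S100a10 was 2.27-fold higher in PCL than in MCL (log2 difference 1.18 ± 0.28, SE). BL lay between them, 0.65 ± 0.26 below PCL and 0.54 ± 0.28 above MCL, and overlapped with both.

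The partner of S100a10, Anxa2, had a pattern of its own. It read 1.55, 2.22, 0.73 and 1.27 in PCL1 to PCL4, 3.72, -1.07 and 1.89 in MCL1 to MCL3, and 0.49, -0.09, 0.43 and 0.62 in BL1 to BL4. MCL held both the highest and the lowest of the 11 tumours, and PCL lay above BL without overlap. The means were 1.44 ± 0.62 (SD, n = 4) in PCL, 1.51 ± 2.42 (SD, n = 3) for MCL and 0.36 ± 0.31 (SD, n = 4) in BL. PCL exceeded BL by 1.08 ± 0.82 (SE). The differences that involve MCL rest on single tumours: MCL minus BL was 1.15 ± 0.88, but 0.05 without MCL1 and 2.45 without MCL2, and PCL minus MCL was -0.07 ± 0.88, but 1.03 without MCL1 and -1.36 without MCL2. Within MCL, Anxa2 ordered the tumours as S100a6 did, with MCL1 highest and MCL2 lowest. S100a10 ordered them the other way, with MCL2 highest and MCL1 lowest.

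Anxa1 encodes annexin A1, an anti-inflammatory protein known as an inhibitor of phospholipase A2 and as a ligand of formyl peptide receptors. Its brighter probe gave -1.22, -0.06, -2.64 and -1.65 in PCL1 to PCL4, -4.43, -3.40 and -4.29 in MCL1 to MCL3, and 0.72, -1.88, -3.53 and -1.50 in BL1 to BL4. MCL lay below every PCL tumour, whereas BL spread from BL1, the highest of all 11 tumours, down to BL3, which was among the MCL values. Means were -1.39 ± 1.07 (SD, n = 4), -4.04 ± 0.56 (SD, n = 3) and -1.55 ± 1.75 (SD, n = 4). The difference between PCL and MCL was 2.65 ± 0.89 (SE), or 6.28-fold, and that between MCL and BL was -2.49 ± 0.89, or -1.74 without BL1 and -3.15 without BL3. PCL and BL differed by 0.16 ± 0.82. The other Anxa1 probe had nearly the same pattern (r = 0.996 over 11 tumours), but it was well above background on 7 of 11 arrays and in 1 of the 3 MCL tumours; the brighter probe was well above background on all 11.

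S100a11 encodes the S100 protein that binds annexin A1. It was at 1.34, 1.12, 1.50 and 1.36 in PCL1 to PCL4, at 0.77, -0.61 and 1.06 in MCL1 to MCL3, and at 1.73, 0.80, 0.41 and 1.48 in BL1 to BL4. PCL tumours were tightly grouped and above MCL, by the small margin between PCL2 and MCL3, while BL overlapped with both. The differences were 0.92 ± 0.42 (SE) for PCL minus MCL, 0.22 ± 0.39 for PCL minus BL and -0.70 ± 0.42 for MCL minus BL. MCL2 had the only S100a11 signal below 0, and without it PCL minus MCL was 0.41 and MCL minus BL was -0.19. Without MCL3 they were 1.25 and -1.02.

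S100a13 encodes a protein of the complex through which FGF1 leaves cells without a signal peptide. It was at 1.74, 2.14, 2.15 and 2.43 in PCL1 to PCL4, at 1.38, 1.09 and 1.12 in MCL1 to MCL3, and at 1.56, 1.48, 1.84 and 2.42 in BL1 to BL4. As for S100a6, the MCL tumours were the lowest 3 of the 11, but the distance was far smaller. Means were 2.12 ± 0.28 (SD, n = 4), 1.20 ± 0.16 (SD, n = 3) and 1.83 ± 0.43 (SD, n = 4), and S100a13 was 1.89-fold higher in PCL than in MCL (0.92 ± 0.25, SE) and 1.55-fold lower in MCL than in BL (-0.63 ± 0.25). PCL and BL overlapped.

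S100a1, known from heart and skeletal muscle, where it acts on calcium release, had values from -4.13 to -2.87 in PCL, from -4.57 to -3.62 in MCL and from -4.47 to -2.88 in BL, and all 3 types overlapped. PCL minus MCL was 0.82 ± 0.42 (SE) and MCL minus BL was -0.41 ± 0.42. The 2 probes of S100a1 did not rank the tumours alike (r = 0.37 over 11 tumours): MCL1 was at -4.32 by one and at -3.12 by the other. No order of the types can be read from S100a1.

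Across the 8 genes, 7 were higher in PCL than in MCL, all but Anxa2. In 5 of them, S100a6, S100a10, S100a11, S100a13 and Anxa1, the tumours of both types did not overlap, beside 22.9% of all genes tested. In the limma fit over all genes, S100a6 and S100a10 were past an adjusted p of 0.05 as higher in PCL, beside 2.13% of all genes, and 0 of the 8 were past it as lower, beside 4.82%. An unadjusted p under 0.05 was reached by 5 of the 8, beside 24.4% of all genes. The median difference was 1.05 for the 8 genes and -0.03 for all genes. These counts describe genes that were selected on such values, and nothing is read from them.

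Between MCL and BL, 7 of the 8 were lower in MCL, again all but Anxa2, and S100a4, S100a6 and S100a13 did not overlap, beside 17.7% of all genes. Only S100a6 passed the same threshold (limma, all genes), as lower in MCL, where 0.198% of all genes did. As higher in MCL 0 of the 8 passed, beside 6.45% of all genes, and 4 of the 8 had an unadjusted p under 0.05, beside 18.5%. These counts, too, are fixed in part by the choice of genes. The median difference of the 8 was -0.66, against 0.06 for all genes.

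Between PCL and BL, 6 of the 8 were higher in PCL. In the limma fit 0 of the 8 passed in either direction, beside 0.456% of all genes higher and 0.203% lower in PCL, and 1 of the 8 had an unadjusted p under 0.05, beside 17.6%. Only Anxa2 did not overlap, beside 11% of all genes, and the median difference was 0.26 against 0.09 for all genes. The 3 comparisons share tumours: the MCL values enter both comparisons in which S100a6 stands out.

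**Figure D2:**
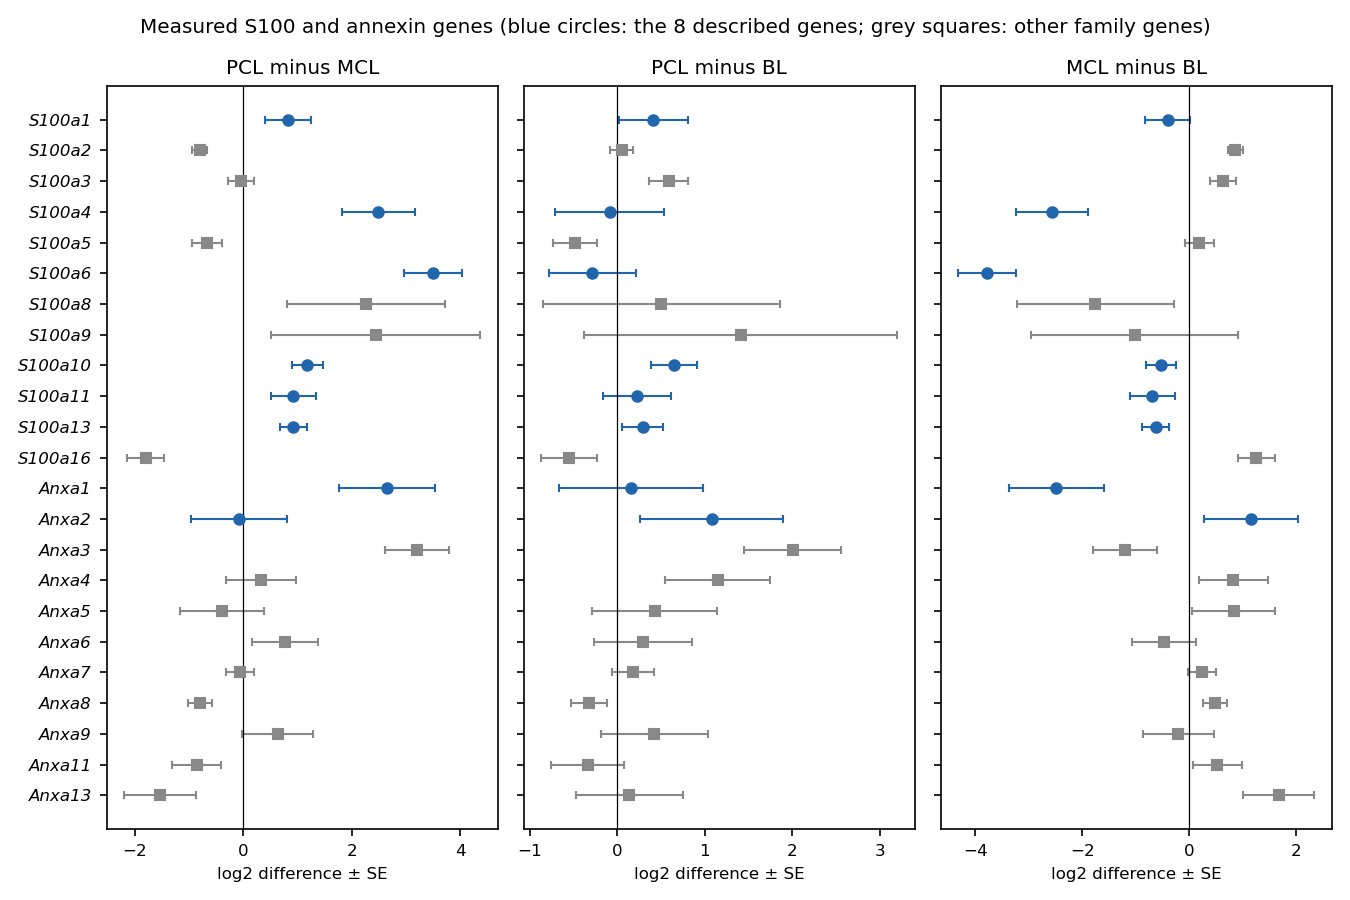
Log2 differences with their SE (horizontal axes, scaled per panel) for all 23 S100 and annexin genes that were tested, in PCL minus MCL, PCL minus BL and MCL minus BL. Blue circles are the 8 genes described here and grey squares the other family genes; S100a6 lies farthest from 0 in the first and the last panel, at 3.49 and -3.78, and S100a16 lies on the other side of 0, at -1.80 and 1.25.

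Of 11 other S100 genes on the array, 6 had signals high enough to be tested, and S100a7a, S100a14, S100b, S100g and S100z did not. S100a16 and S100a2 fell in PCL relative to MCL, the opposite of the S100 genes above. These were 2 of the 6, beside 4.82% of all genes called as lower in PCL. In MCL minus BL 1 of the 6 was called, as higher in MCL, beside 6.45% of all genes. An unadjusted p under 0.05 was reached by 3 of the 6 in each of these comparisons (limma), beside 24.4% and 18.5% of all genes. S100a16, which encodes a widely expressed S100 protein, was at 1.14, 0.58, 0.98 and 0.73 in PCL1 to PCL4, 1.99, 3.33 and 2.64 in MCL1 to MCL3, and 1.68, 1.74, 1.46 and 0.73 in BL1 to BL4. MCL was thus the highest type, and PCL minus MCL was -1.80 ± 0.34 (SE; limma, adjusted p = 0.0179). Another S100a16 probe gave -0.62, and the call was lost without MCL2 (-1.46), PCL2 (-1.70) or PCL4 (-1.76). MCL minus BL was 1.25 ± 0.34 (adjusted p = 0.0604).

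S100a2 was dim, at -4.32 ± 0.07 (SD, n = 4) in PCL, -3.52 ± 0.08 (SD, n = 3) for MCL and -4.37 ± 0.11 (SD, n = 4) in BL. It fell by 0.80 in PCL relative to MCL (limma, adjusted p = 0.0136) and rose by 0.85 in MCL relative to BL (adjusted p = 0.00786), and MCL did not overlap with the other types. With normexp background correction the differences were -0.01 and 0.15, and neither was called; without PCL4 the first was -0.78 and not called. Its MCL minus BL difference was 0.40 in the authors' table and 0.60 with median scaling, also not called.

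S100a8 and S100a9 encode the subunits of calprotectin, the abundant calcium-binding protein of neutrophils, and had the widest spread of the family. S100a8 was at -3.40, 2.38, 0.22 and 1.01 in PCL1 to PCL4, -4.57, -0.45 and -1.61 in MCL1 to MCL3, and -2.59, 0.70, -1.12 and 1.21 in BL1 to BL4. The differences of S100a9 were 2.44 ± 1.93 (SE) for PCL minus MCL and -1.03 ± 1.93 for MCL minus BL (limma, adjusted p = 0.475 and 0.839). The lowest tumours of S100a8 in each type, PCL1, MCL1 and BL1, all at position 1 of their slides, were also the lowest in the neutrophil markers, whose mean was -1.44, -1.54 and -1.89 there and reached 2.55 in PCL2. Of 8 neutrophil markers 7 were tested, all but Ly6g. The S100a6 values of the same 3 tumours, 3.42, 1.21 and 3.00, were the highest of PCL, the highest of MCL and the lowest of BL. Between PCL and BL, 0 of the 6 other S100 genes were called and 1 had an unadjusted p under 0.05 (limma), beside 17.6% of all genes.

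Of 10 other annexins, 9 were tested (all but Anxa10) and 1 was called, as higher in PCL than in MCL, beside 2.13% of all genes. In that comparison 3 of the 9 had an unadjusted p under 0.05 (limma), beside 24.4% of all genes. Anxa3 was well above background in 3 PCL tumours and in no MCL or BL tumour, so it passed the filter on dim probes through PCL alone and had to differ. Its ratio of PCL to MCL was at least 2.08-fold, the PCL mean against the lowest measurable signal (limma, adjusted p = 0.0165), and nothing more is read from this call. The call was lost without MCL2 (fitted log2 difference 3.20), PCL2 (2.94) or PCL4 (3.19) and with normexp correction (1.30), and the difference was 0.92 in the authors' table. Anxa5, whose protein is used to stain dying cells, differed by -0.40 ± 0.78 (SE) between PCL and MCL (adjusted p = 0.794). Anxa13, well above background in no BL tumour, had a mean at least 2.88-fold higher in MCL (limma, adjusted p = 0.204). The types overlapped: MCL1 was at -2.96, but MCL3, at -5.70, was below BL3 (-5.65) and BL4 (-5.59). In both comparisons with BL 0 of the 9 annexins were called, and 1 in each had an unadjusted p under 0.05 (limma). Of all genes, 17.6% reached that in PCL minus BL and 18.5% in MCL minus BL.

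Proteins known to bind S100 and annexin proteins, with their receptors and targets, were looked at as a list of 22 genes, of which 18 were tested. Plat, Plg, Plau and Il1a were too dim. Between PCL and MCL, Ahnak and Ppp5c fell in PCL and Tpm1 rose, beside 4.82% of all genes called as lower and 2.13% as higher in PCL. An unadjusted p under 0.05 was reached by 6 of the 18 in this comparison (limma), beside 24.4% of all genes. Ahnak encodes a very large scaffold that the complex of S100A10 and annexin A2 recruits to the membrane. It was at 1.28, 0.76, 0.02 and -0.17 in PCL1 to PCL4, 2.24, 2.39 and 1.63 in MCL1 to MCL3, and 2.09, 2.77, 2.80 and 2.76 in BL1 to BL4. All PCL tumours were below all others, whereas S100a10 was highest in PCL. Ahnak fell by 1.62 relative to MCL and by 2.13 relative to BL (limma, adjusted p = 0.0313 and 0.0322). Against BL it was the only gene of the 18 called, beside 0.203% of all genes called as lower in PCL.

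The size of the Ahnak difference depended on the probe and its calls on single tumours. The mean of all probes gave -0.96 and -1.36, neither called, and neither call held with normexp correction (-1.61 and -2.06). The call against MCL was also lost with no filter on dim probes and with only those types compared. The other 3 probes gave -0.01, -0.98 and -1.24 for PCL minus MCL and -0.98, -0.54 and -1.80 for PCL minus BL. Against MCL the call was lost without MCL1 (-1.54), MCL2 (-1.47), PCL2 (-1.71), PCL3 (-1.47) or PCL4 (-1.40), and against BL without BL2 (-2.08), BL3 (-2.07), BL4 (-2.08), PCL2 (-2.23), PCL3 (-1.98) or PCL4 (-1.92).

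Ppp5c, which encodes protein phosphatase 5, an enzyme that S100 proteins bind, had signals of 2.02 ± 0.34 (SD, n = 4) in PCL, 3.16 ± 0.34 (SD, n = 3) for MCL and 2.34 ± 0.19 (SD, n = 4) in BL. Ppp5c fell by 1.13 in PCL relative to MCL (limma, adjusted p = 0.0243), a call lost without MCL2 (-1.05), MCL3 (-1.02), PCL2 (-1.02) or PCL4 (-1.05). Tpm1, a tropomyosin gene, rose by 1.33 in PCL relative to MCL (limma, adjusted p = 0.0256), but its 4 other probes gave 1.43, 0.49, 0.40 and -0.03, and the mean of all probes 0.72, not called. Its call was lost without MCL1 (1.22), MCL2 (1.29), PCL2 (1.26) or PCL4 (1.25). Of the direct partners named above, Cacybp differed by 0.44 ± 0.37 (SE) and Myh9 by -0.13 ± 0.16 between PCL and MCL, neither called. Among the differences that were not called, Dysf, the gene of dysferlin, was at least 2.59-fold higher in PCL, with no MCL tumour well above background (adjusted p = 0.133). The formyl peptide receptor gene Fpr1 differed by 2.33 (adjusted p = 0.181). Between MCL and BL 0 of the 18 were called, and 1 had an unadjusted p under 0.05 (limma), beside 18.5% of all genes. The median difference of the list was 0.50 for PCL minus MCL and -0.41 for MCL minus BL, against -0.03 and 0.06 for all genes.

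A further list held 18 genes that are often expressed with S100a4, S100a6, S100a10 and Anxa2 in activated or memory lymphocytes, such as Lgals1, Vim, Crip1 and Emp3, and all were tested. In the limma fit 0 of the 18 were called in any of the 3 comparisons, and 3, 2 and 3 had an unadjusted p under 0.05 in PCL minus MCL, PCL minus BL and MCL minus BL. Of all genes 24.4%, 17.6% and 18.5% did, in the same order. The median differences of the 18 were -0.01, -0.04 and -0.07. Vim, the gene of vimentin, was at 3.97 ± 0.37 (SD, n = 4), 3.73 ± 0.71 (SD, n = 3) and 4.17 ± 0.48 (SD, n = 4), and Crip1, a LIM domain gene, at 5.37 ± 0.64, 4.85 ± 1.01 and 5.15 ± 1.11 in the same order of types. Among the largest differences were those of the galectin gene Lgals3 (2.28 ± 0.85, SE, PCL minus MCL; adjusted p = 0.136) and of the tetraspanin gene Cd9 (-2.42 ± 1.18; adjusted p = 0.240). The actin-capping gene Capg differed by -1.54 ± 0.66 between MCL and BL (adjusted p = 0.245). The closest to a call was Emp3, a membrane protein gene, at -1.28 ± 0.26 for PCL minus BL (adjusted p = 0.059).

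On chromosome 3, genes with large and small differences lie side by side. The S100a4 probe is 8.25 kb from that of S100a6, and between them, 2.52 kb from S100a6, lies the probe of S100a5, a dim gene with 0.19 ± 0.28 (SE) for MCL minus BL. On the far side of S100a4 are S100a3 at 11.8 kb (0.63 ± 0.24) and S100a2 at 22.9 kb. S100a16 is 71.6 kb away, S100a13 89.7 kb and S100a1 103 kb. S100a8 and S100a9 follow in the other direction, at 55.6 and 78.4 kb. The 8 tested genes within 400 kb that are no S100 genes, such as Chtop, Ilf2 and Ints3, had differences from -0.51 to 0.60 between MCL and BL and from -0.55 to 0.60 between PCL and MCL. S100a5, which lies between S100a4 and S100a6, was at -3.79 ± 0.31 (SD, n = 3) in MCL beside -3.98 ± 0.49 (SD, n = 4) in BL.

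**Figure D3:**
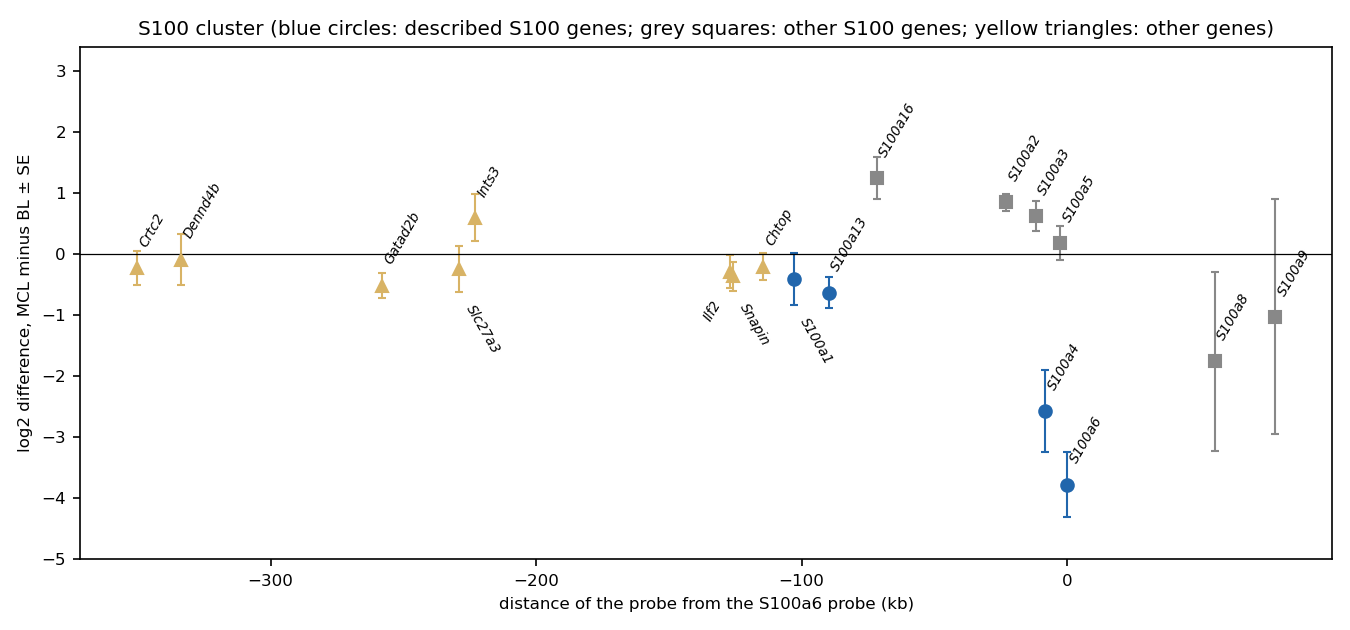
Log2 difference, MCL minus BL, with its SE (vertical axis) of the 18 tested genes within 400 kb of S100a6, by distance of their probe from that of S100a6 in kb (horizontal axis). Blue circles are S100 genes described in detail, grey squares other S100 genes and yellow triangles other genes; S100a6 and S100a4 lie at -3.78 and -2.57, S100a16 at 1.25, and the triangles between -0.51 and 0.60.

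S100a11 and S100a10 lie farther along, 2912 and 2950 kb from S100a6, past a long row of skin genes. Over the whole stretch, chr3:90064959-93618496 (mm9), 34 of 87 genes that are no S100 genes could be tested. In MCL relative to BL 9 of these rose and 0 fell, beside 6.45% of all genes called as higher and 0.198% as lower in MCL. In PCL relative to MCL 7 fell and 0 rose, beside 4.82% of all genes called as lower and 2.13% as higher in PCL. With normexp background correction 0 of the 9 and 0 of the 7 were called, and 5 of the 9 and all 7 were called in the authors' table. Most of the 9 calls were also lost with only the 2 types compared, and most with median scaling. Leaving out PCL2 or MCL2 left 2 calls in PCL minus MCL among these 34 genes, leaving out MCL1 or PCL4 left 3, and leaving out PCL3 left 4. Those with a gene symbol were Lce1a2, Lce1m, Lelp1, Sprr1a and Tdpoz8 in the first comparison and Lce1a2, Sprr1a and Tdpoz8 in the second. Most, Tdpoz8 not among them, are keratinocyte genes of the cornified envelope. Tdpoz8 was at 1.12 ± 0.18 (SD, n = 4) in PCL, 2.08 ± 0.08 (SD, n = 3) for MCL and 1.02 ± 0.20 (SD, n = 4) in BL. MCL thus lay above both (limma, adjusted p = 0.0149 against PCL and 0.0075 against BL), and the first call was lost without PCL2 (-0.97). A second Tdpoz8 probe gave -0.19 for PCL minus MCL and 0.59 for MCL minus BL, and with the mean of both probes the first difference was -0.57 and not called. Sprr1a differed by 1.02 between MCL and BL and by 0.17, not called, with normexp correction. The Sprr1a call against BL was also lost without MCL1 (0.88), MCL2 (1.08), BL2 (0.95) or BL4 (0.92), and the one against PCL without any one of the MCL tumours or of PCL2 to PCL4 (-1.12 to -0.90). Lelp1 lost its call without MCL2 (0.69), and Lce1a2 lost its call against PCL without MCL1 (-0.70), MCL2 (-0.72), PCL2 (-0.73) or PCL4 (-0.71). Between PCL and BL 0 of the 34 were called, and 4 had an unadjusted p under 0.05 (limma), beside 17.6% of all genes. S100a2 moved in the same direction in MCL, and the values of S100a6 lay in the opposite one.

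Genes whose signals resembled those of S100a6 most were found by correlation over the 11 tumours, among 15445 genes well above background on all arrays. The tumours of a type share a slide and differ from other types in many genes, so these values are a description. The 10 highest were Rps6ka4 (r = 0.91), Kri1 (0.90), Col7a1 (0.87), Gda (0.87), Fam189b (0.87), Acsbg1 (0.86), Prpf4 (0.86), Spi1 (0.86), Wasf2 (0.86) and Dlst (0.85). Leaving out MCL2 and MCL3, which lie farthest from the median of S100a6, gave 0.87 for Kri1 and 0.73 for Wasf2 but 0.42 for Rps6ka4 and 0.26 for Prpf4, which rest on those tumours. Spi1, the gene of the transcription factor PU.1 of myeloid and B cells, was at -1.69 on average in PCL, -3.08 in MCL and -1.99 in BL, and gave 0.54 without these tumours. The 5 lowest were Lmx1b (-0.97), Ccdc42 (-0.96), A930001C03Rik (-0.96), Gdf3 (-0.96) and Gm11961 (-0.96), all higher in MCL. Lmx1b gave -0.94 without MCL2 and MCL3, but it was dim, at -4.06 on average in PCL, -3.31 in MCL and -4.16 in BL.

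Within the family S100a4 was the most like S100a6, with r = 0.82 and rank 28 of the 15445 genes, but 0.32 without MCL2 and MCL3. S100a13 had 0.70 (0.29 without them), S100a11 0.63 (0.11), Anxa1 0.59 (0.45), S100a10 0.50 (0.54), S100a1 0.49 (0.50) and Anxa2 0.03 (-0.84). The values of S100a4, S100a13 and S100a11 thus rest on the 2 MCL tumours with the least S100a6, and that of Anxa2 changes sign without them. The pair that forms a complex, S100a10 and Anxa2, had r = -0.31 over the 11 tumours, and the other such pair, S100a11 and Anxa1, had 0.56. These r values mix differences between types with those among tumours of a type. With the mean of each type taken off, the 2 pairs had -0.69 and 0.24. With S100a6, S100a4 then had 0.33, S100a13 0.10, S100a11 0.37, Anxa1 -0.29, S100a10 -0.41, S100a1 0.28 and Anxa2 0.79.

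Markers of other cells were set beside these genes. Of 14 macrophage and monocyte markers, 12 were tested (all but Cd163 and Vsig4) and 6 were well above background on all arrays. Of the 12, 2 were called as higher in PCL than in MCL (limma), beside 2.13% of all genes. The mean of the list was -0.83, 2.56, 1.36 and 1.81 in PCL1 to PCL4, 0.11, -2.03 and -1.50 in MCL1 to MCL3, and -0.50, -0.41, 0.10 and -0.65 in BL1 to BL4. MCL2 and MCL3 were thus lowest both in this list and in S100a6. The list and S100a6 had r = 0.55 over the 11 tumours, and 0.39 with the mean of each type taken off. PCL1, with the lowest list value of PCL and BL, had the highest S100a6 signal of PCL, 3.42. MCL1, with a list value of 0.11, just above the highest BL tumour (0.10), had an S100a6 signal of 1.21, below all BL tumours. Without PCL1, S100a6 in PCL minus MCL was 3.44. The part of the macrophage content in the S100a6 result was not tested.

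The B cell markers differed less: their mean lay between -0.47 and -0.06 in PCL, -0.26 and 0.25 in MCL and 0.18 and 0.40 in BL. MCL2, with the lowest S100a6, had a B cell value of 0.25, within the range of the BL tumours. The plasma cell markers (8 of 8 tested) lay between 0.47 and 1.13 in PCL, -0.54 and 0.78 in MCL and -1.40 and -0.03 in BL, so that PCL and BL, which overlapped in S100a6, did not overlap in this list. T cell markers (7 of 8 tested) lay between -0.73 and 0.04 in PCL, -0.32 and 1.28 in MCL and -1.09 and 0.92 in BL. Dendritic cell markers (4 of 5 tested) lay between -0.09 and 1.03 in PCL, -1.44 and -0.25 in MCL and -0.46 and 0.46 in BL. Fibroblast and stroma markers lay between -0.33 and 2.33 in PCL, -2.13 and 0.33 in MCL and -1.16 and 1.94 in BL (6 of 8 tested, 1 well above background on all arrays). The part of these cells in the S100a6 result was not tested.

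**Figure D4:**
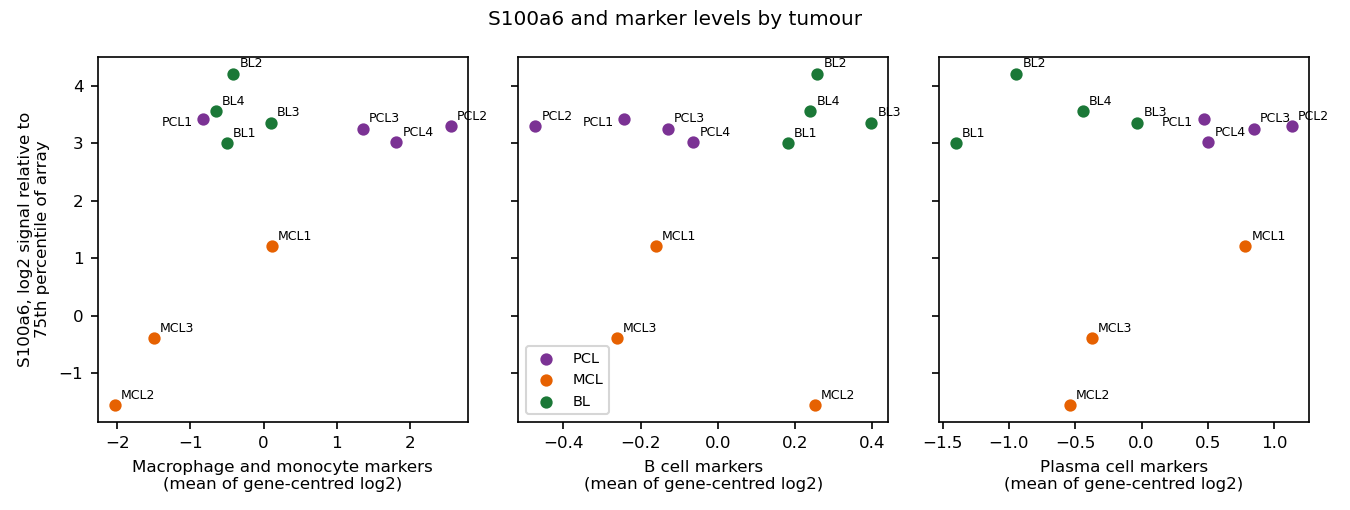
S100a6 signal of each tumour (vertical axis, log2 relative to the array's 75th percentile) against the mean of gene-centred log2 signals of the macrophage and monocyte, B cell and plasma cell markers (horizontal axes). Points are tumours, coloured by type and named; PCL1 combines 3.42 for S100a6 with -0.83 for the macrophage markers, and MCL1 combines 1.21 with 0.11.

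The starts of these genes were searched for short sequences that known factors bind. Promoters, taken from RefSeq on GRCm38.p6, span 300 bases, 250 before and 50 after the start, and 7 of the 8 genes matched an entry, all but S100a10. Both strands were searched for CACGTG, the E-box that MYC and related factors bind, and for TGANTCA, the site of AP-1 factors; the 2 motifs do not overlap. The windows are shown because they carry these motifs, in capitals, with 10 bases on either side.

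S100a6, chr3:90612898-90612923 (GRCm38.p6, plus strand): agtttcgagtCACGTGccagaaggga

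S100a11, chr3:93520263-93520288 (GRCm38.p6, plus strand): tgcaaatggaCACGTGcatagaaaaa

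S100a11, chr3:93520350-93520376 (GRCm38.p6, plus strand): agagacctgtTGAGTCAcagggactac

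S100a11, chr3:93520448-93520474 (GRCm38.p6, plus strand): gggcacagccTGAGTCAggctgagggg

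Anxa2, chr9:69453578-69453604 (GRCm38.p6, plus strand): ccaagttggaTGAGTCAcccagcaggg

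The motif of S100a6 begins 15 bases after the start, and those of S100a11 begin 223, 136 and 38 bases before it. In Anxa2 the motif begins 95 bases before the start. CACGTG was in 2 of the 7 promoters, as in 7.15% of 32851 mouse promoters, and TGANTCA in 2 of the 7, as in 7.81%. The other 4 windows, of S100a1, S100a4, S100a13 and Anxa1, held neither run of letters. Those of S100a1 and S100a13, on opposite strands, overlap for most of their length, so the 7 promoters are not all separate sequences. A match describes letters and not binding.

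The differences of S100a6 were recomputed under 22 other treatments of the data. MCL minus BL ranged from -4.50 to -3.12, PCL minus MCL from 2.84 to 4.22 and PCL minus BL from -0.55 to -0.06. For S100a10, PCL minus MCL ranged from 1.04 to 1.46. For S100a4, MCL minus BL ranged from -3.35 to -1.79, and for Anxa1, PCL minus MCL ranged from 1.98 to 3.07. All of these use the values on which the genes were chosen, so the ranges describe how far a treatment moves a size and give no support to it. Anxa2 was the one gene of the 8 whose PCL minus MCL difference took both signs, from -1.36 to 1.03.

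**Figure D5:**
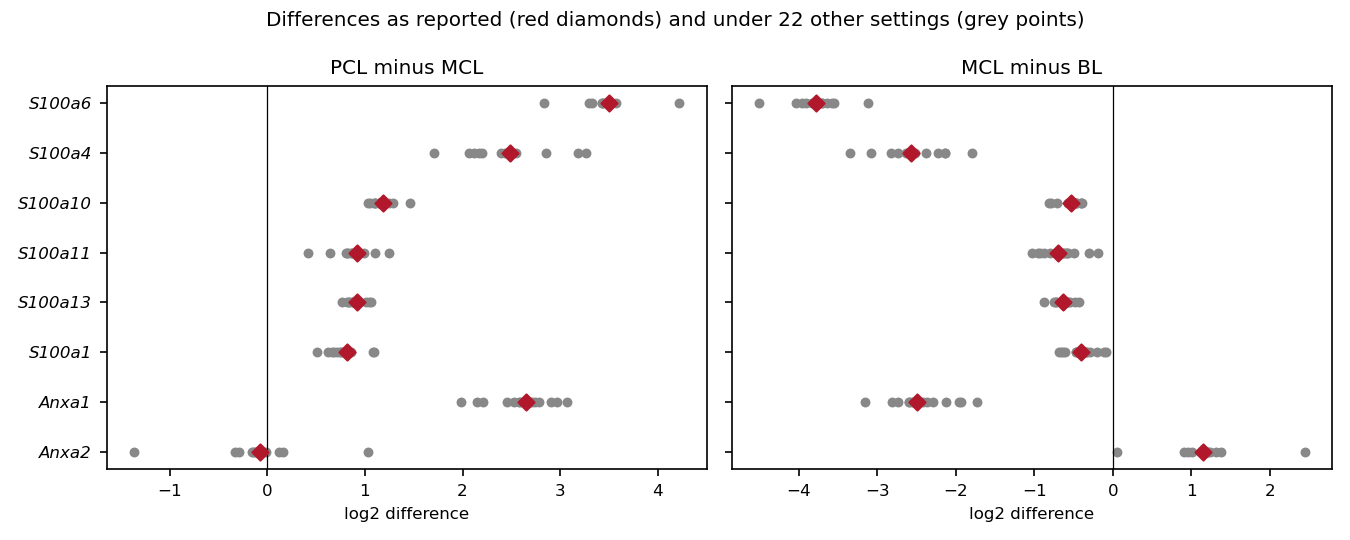
Log2 differences of the 8 genes (horizontal axes, PCL minus MCL and MCL minus BL, scaled per panel) as reported (red diamonds) and under 22 other settings of normalization, background, filter, model and left-out tumours (grey points). S100a6 stays between 2.84 and 4.22 and between -4.50 and -3.12, and Anxa2 spans 0 in the left panel.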

How the data were processed

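RNA of 11 mouse lymphomas was labelled with Cy3 and hybridised to one-colour Agilent arrays. The scanner files deposited by the authors hold the processed signal, a linear intensity from Agilent Feature Extraction 10.7.3.1 with spatial detrending and no normalization between arrays, per the file headers; mean signal and local background intensity from the same deposited files served the normexp alternative. The authors also deposited a value table, whose log2 scale was inferred from its values and whose making no source used here describes; it was another alternative. Non-control spots marked as outliers were left out, spots of a probe averaged, and log2 signals set against each array's 75th percentile (1072 to 1637 intensity units). Between 21.5% and 29.2% of an array's spots hold a substitute value set by the software. A probe had to be well above background on 3 or more arrays (25296 were), and the probe with the highest mean stood for a gene (20181 genes). Probe positions are of mm9; symbols come from RefSeq (GRCm38.p6).

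One fit of all 11 arrays with limma 3.58.1 in R 4.3.3 gave differences, standard errors and p-values, adjusted by Benjamini-Hochberg over all genes; an adjusted p under 0.05 is a call. The limma fit was tested on simulated data for MCL minus BL, which held no slide effects. A ratio to a type not well above background is a lower bound. Named genes were all 8 members with every probe, the called genes of each list and otherwise those with the largest differences, and the 10 highest and 5 lowest correlations with S100a6; Cacybp, Myh9, Vim, Crip1, Anxa5, Emp3, S100a3, S100a5 and genes near the cluster were named in addition, with values seen, for their role, place or value. The members and the lists were chosen with earlier results of these data known. Alternatives covered background, scaling, the value table, filters, probe choice, samples, RNA integrity, array weights, array position and each tumour left out.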

Additional observations from a re-analysis of the deposited data

How the results depend on the processing

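The S100a6 differences moved over the ranges given above, which give no support to their size. Counts of called genes over all genes moved too. For PCL minus MCL, 1401 genes in the reported fit, they were 4424 with array quality weights, 697 with no filter on dim probes, 197 with normexp background (46.2% of them higher in PCL, against 30.6%) and 742 with only the 2 types compared, and 333 (without PCL2) to 2463 (without PCL1) with a tumour left out. For PCL minus BL, 133 genes, they were 2183 with array quality weights (54.0% higher in PCL, against 69.2%), 517 with median scaling (20.9% higher), 86 with no filter, 13 with normexp (38.5% higher), and 5 (without PCL2) to 1074 (without PCL1) with a tumour left out. For MCL minus BL, 1341 genes, they were 680 in the authors' table, 297 with median scaling, 65 with normexp, 291 with only the 2 types and 746 with quantile normalization, and 687 (without MCL1) to 1373 (without PCL1) with a tumour left out. Scaling and filtering also moved the median of all genes: median scaling by -0.27 in PCL minus BL and -0.25 in MCL minus BL, normexp by 0.19 in PCL minus MCL and -0.16 in MCL minus BL, and no filter by 0.16 and 0.12 in the comparisons of PCL with MCL and with BL. The causes were not tested.

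Replicate numbers are array positions on a slide and say nothing of pairing. Samples of the same position had correlated deviations of -0.05 to 0.17 over 10 pairs, 3 of them over 0.1, and 8 of 11 arrays correlated best with their own position. With position as a block, 391, 64 and 380 genes were called in PCL minus MCL, PCL minus BL and MCL minus BL, and S100a6 differed by 3.53 and -3.81 in the first and the last. Of the calls named above, the block ended those of S100a2, S100a16, Ahnak, Ppp5c and Tpm1. It also ended all 7 in PCL minus MCL among the genes between the S100 genes, and 7 of the 9 there in MCL minus BL. With the block S100a10 was no longer past the adjusted p of 0.05 in PCL minus MCL (1.10). No alternative turned a called difference around. Dim probes such as those of S100a1, S100a2 and Anxa3 are limited by their signal over background.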
